A study of Homo sapiens with 6 samples.

Results

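The EGR and NR4A immediate-early factors form a set of 10 genes in human myeloma cells. It holds 3 zinc-finger factors of the EGR family (EGR1, EGR2, EGR3), the 3 NR4A orphan nuclear receptors (NR4A1, NR4A2, NR4A3), 3 immediate early response genes (IER2, IER3, IER5) and SRF, the serum response factor that switches on EGR1 and other genes of this kind. The genes were chosen by symbol, with measured values of the same contrast in view, so their differences between the groups are described here and not tested. All 10 are among the 21850 genes of the count table, and 8 had enough counts to enter the fit over 13971 genes. EGR3 and NR4A3 did not.

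MM.1S is an established human multiple myeloma cell line. RNA was sequenced at day 3 after infection with a lentivirus for a scramble hairpin (shNT, genotype given as WT, 3 libraries) or for a PRKCN hairpin (shPRKCN, genotype given as PRKCN knockdown, 3 libraries). PRKCN is an older symbol of PRKD3, a kinase of the protein kinase D family. Both groups therefore carry a lentiviral hairpin, and no uninfected cells were compared. The labels name 1 cell line and do not say that the libraries of a group came from separate cultures, so any p-value measures only the spread between these libraries, which may be technical.

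Immediate-early genes are those that a cell transcribes first after a growth factor, antigen or stress signal, with no new protein needed. SRF bound with ELK factors, which are phosphorylated by ERK, or with actin-regulated MRTF factors drives EGR1, EGR2 and many other immediate-early genes, while CREB and MEF2 act on the NR4A genes. The EGR proteins bind GC-rich sites and are restrained by the NAB corepressors. In B lineage cells EGR and NR4A genes are induced by antigen receptor signals, and NR4A1 is widely used as a marker of recent signaling.

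The libraries held between 35625564 and 37730003 counts, so depth was similar in both groups, and 3 counts in a library corresponded to 0.079 to 0.0849 CPM (the usual count unit relative to library total, here adjusted for composition by TMM). PRKD3, the targeted gene, had 44913, 47712 and 45531 counts in shNT and 19979, 18253 and 19998 counts in shPRKCN. Its CPM in shPRKCN was 41% of that in shNT. Of 12 plasma cell markers 11 were tested, and their summed CPM ran from 9918 to 10050 in shNT and from 8494 to 8590 in shPRKCN. IRF4, XBP1, TNFRSF17 and SLAMF7 were the 4 called lower, beside 10.6% of all tested genes. IRF4 was the lowest, with a log2 fold change of -1.85. By the adjusted p alone 8 markers were lower and 1, SDC1, was higher (0.18, adjusted p = 2.09e-06), beside 27.8% and 26.5% of all genes. JCHAIN (0.01, adjusted p = 0.712) and CD38 (-0.01, adjusted p = 0.875) did not pass. JCHAIN made up the largest part of the sum, at 5328 to 5400 CPM in shNT. Among 18 markers of other blood, epithelial, stromal and vessel cells 14 were listed and 6 tested. Their summed CPM was 34.5 to 39.8 in shNT and 38.3 to 42.8 in shPRKCN. Of the 14, 10 had under 20 counts in every library. The sum came mostly from CD3E, PECAM1 and HBB, which did not move in the same direction. The T cell receptor subunit CD3E was called higher (log2 fold change 1.41, adjusted p = 7.45e-26), whereas CD3D had at most 1 count and the myeloid marker LYZ at most 2 counts in any library. HBB (-1.65, adjusted p = 1.85e-08) and PECAM1 (-1.24, adjusted p = 1.69e-20) were called lower. The part of these genes in the results below was not tested.

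Of the 8 members tested, 5 were past the limits used for all genes on the lower side (an adjusted p under 0.05 in edgeR's quasi-likelihood test and a log2 fold change below -0.58), where 10.6% of all tested genes were. These were EGR1, EGR2, NR4A1, NR4A2 and IER3. On the higher side, where 6.15% of all tested genes were called, no member was past both limits in edgeR or DESeq2, and 1 member, SRF, had an unadjusted p under 0.05. With the adjusted p alone, 6 members were lower and 1 was higher, against 27.8% and 26.5% of all genes. Since these members were picked on the same contrast, nothing is read from the counts. In bulk libraries such as these, fewer expressing cells and less RNA per expressing cell cannot be told apart. The members nearest to the fold limit were IER3 beyond it (log2 fold change -1.40) and SRF short of it (0.43). The shPRKCN libraries all lay below the shNT libraries for 6 of the tested members and all above for SRF, and the same was so for 29.8% and 29.0% of all genes.

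Levels per length of gene model differed widely between the members. On the FPKM scale (fragments per kilobase of gene model, scaled to the library total), IER5 had the highest shNT level at 22.4 ± 0.292 (SD, n = 3 here and below), followed by SRF at 10.9 ± 0.243, IER2 at 1.66 ± 0.226 and IER3 at 1.17 ± 0.292. The FPKM level of EGR1 in shNT was 0.788 ± 0.247. NR4A2 (0.324 ± 0.115), NR4A1 (0.25 ± 0.0187) and EGR2 (0.21 ± 0.0495) followed, and these 3 neighbours did not differ beyond their spread. The length behind the NR4A1 values was 8037 bases, against 2678 in its GENCODE transcript, so its place in this order depends on the gene model. NR4A3 was at 0.00999 ± 0.00554 FPKM and EGR3 was listed at 0. Thus 2 members, IER5 and SRF, were well expressed in the shNT cells, and the other 8 were at or below 2 FPKM.

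**Figure D1:**
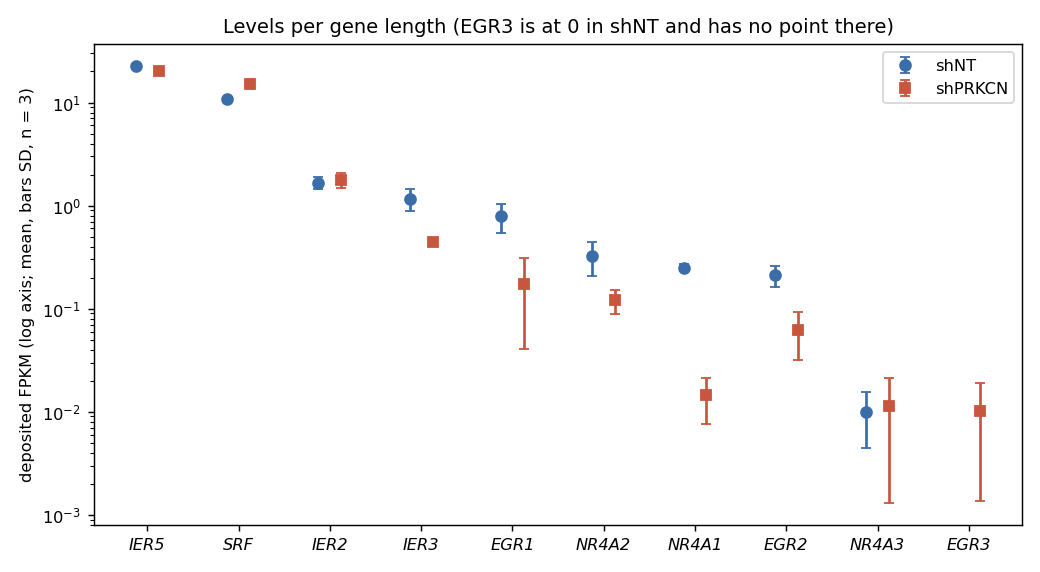
Mean deposited FPKM (log axis) of the members in the shNT and shPRKCN libraries, with error bars of 1 SD over 3 libraries. IER5 and SRF lie at 10 FPKM or more in both groups, and NR4A1, EGR1, EGR2, NR4A2 and IER3 lie lower in shPRKCN.

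EGR1, a zinc-finger factor induced by growth factor and antigen receptor signals, lies at chr5:138465479-138469303 (GRCh38.p14, RefSeq). It had 72, 75 and 127 counts in shNT and 25, 33 and 3 counts in shPRKCN. The groups did not overlap, although the third shNT library was higher than the other 2 and the third shPRKCN library was much lower than its partners. Its mean CPM was 2.49 ± 0.781 in shNT and 0.545 ± 0.418 in shPRKCN, a log2 fold change of -2.19 (SE 0.332). With single libraries left out this value ran from -2.73, without the second shPRKCN library, to -1.67, without the third. From the summed counts, 274 against 61, the shPRKCN level was 21.7% of the shNT level, with an exact 95% interval of 16.1% to 28.7% that covers counting error only.

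EGR2, an EGR factor that acts in B and T cell activation and in myelination, lies at chr10:62811996-62819167 (GRCh38.p14). It had 28, 18 and 27 counts in shNT and 11, 7 and 4 counts in shPRKCN. All shPRKCN libraries were below all shNT libraries, at counts that leave a wide error. The mean CPM was 0.668 ± 0.159 against 0.196 ± 0.0949, a log2 fold change of -1.75 (SE 0.485), and the summed counts gave 29.3% of the shNT level with an exact 95% interval of 17.3% to 47.8%. EGR3, which acts with EGR2 in lymphocytes, had no count in any shNT library and 1, 4 and 1 counts in shPRKCN. Both groups were at or near the floor of 3 counts per library, so no fold is given.

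NR4A1, the nuclear receptor also known as NUR77, showed the largest difference of the 8 tested members. The gene spans chr12:52022832-52059503 (GRCh38.p14). It had 75, 68 and 79 counts in shNT and 2, 5 and 6 counts in shPRKCN. The shNT libraries lay close together and every shPRKCN library was more than 10 times lower. Its mean CPM was 2.03 ± 0.155 in shNT and 0.115 ± 0.0548 in shPRKCN, a log2 fold change of -4.09 (SE 0.414), which ran from -4.38 to -3.76 with single libraries left out. The summed counts, 222 against 13, gave 5.7% of the shNT level with an exact 95% interval of 2.99% to 9.95%. The shPRKCN counts of NR4A1 were at or near the floor of 3 counts per library, so the size of this fold is uncertain. Of the 3 noncoding genes that RefSeq places across the NR4A1 span, LOC107984510 was listed, with 1 count in 1 shNT library.

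NR4A2, known as NURR1, lies at chr2:156324437-156332721 (GRCh38.p14). It had 46, 54 and 26 counts in shNT and 14, 13 and 21 counts in shPRKCN. The third shNT library, which was the highest for EGR1, was the lowest for NR4A2, and the third shPRKCN library, which was the lowest for EGR1, was the highest for NR4A1 and NR4A2. EGR1 and NR4A2 thus did not share their highest and lowest library within a group. The mean CPM of NR4A2 was 1.16 ± 0.408 against 0.426 ± 0.111, a log2 fold change of -1.43 (SE 0.382). NR4A3, the third receptor of the family (NOR1), had 1, 3 and 4 counts in shNT and 6, 2 and 1 counts in shPRKCN. Its groups overlapped at the floor, and no fold is given.

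IER3 encodes a small survival protein that is regulated by NF-κB, and it lies at chr6:30743199-30744547 (GRCh38.p14). It had 37, 64 and 59 counts in shNT and 19, 21 and 22 counts in shPRKCN. The shPRKCN libraries were tight and below all shNT libraries, with a mean CPM of 0.551 ± 0.0372 against 1.46 ± 0.362, a log2 fold change of -1.40 (SE 0.337). IER3-AS1, a noncoding gene that shares 475 bases with the IER3 span, had 4, 6 and 12 counts in shNT and 2, 7 and 6 counts in shPRKCN. Whether the counting used strand is not given in the sources used here, so reads of the shared bases cannot be assigned to one of the genes.

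The other 2 IER genes behaved otherwise. IER2, a nuclear protein whose gene has no intron (chr19:13150411-13154911, GRCh38.p14), had 118, 117 and 153 counts in shNT and 152, 153 and 112 counts in shPRKCN. The groups overlapped and the log2 fold change was 0.07 (SE 0.17), with values from -0.01 to 0.22 when single libraries were left out. IER5 is also a gene of 1 exon, and its protein is reported to bring the PP2A phosphatase to HSF1 and other targets. It had 3316, 3471 and 3603 counts in shNT and 3181, 3197 and 3140 counts in shPRKCN. The libraries of the groups did not overlap, but the levels were close, at 94.8 ± 1.23 CPM in shNT and 84.6 ± 1.73 CPM in shPRKCN (log2 fold change -0.16, SE 0.042).

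SRF, the MADS-box factor that binds CArG boxes, was the one of the 8 tested members whose libraries all lay higher in shPRKCN. It had 1655, 1707 and 1815 counts in shNT and 2314, 2491 and 2361 counts in shPRKCN. Every shPRKCN library was above every shNT library, at 63.7 ± 2.85 CPM against 47.3 ± 1.08 CPM. This was 135% of the shNT level (log2 fold change 0.43, SE 0.0492), and the value stayed between 0.39 and 0.46 with single libraries left out. SRF and its known targets EGR1 and EGR2 therefore differed in opposite directions between the groups.

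**Figure D2:**
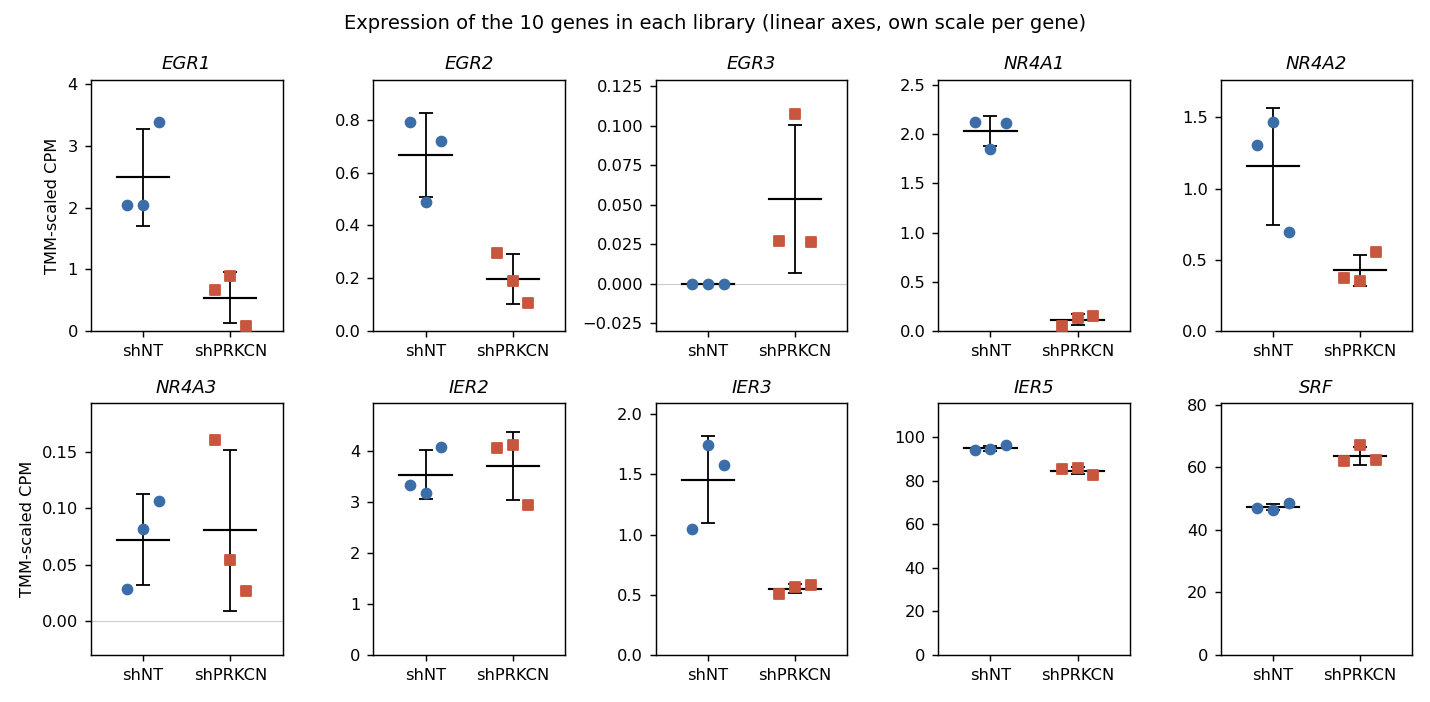
CPM of each member in each of the 6 libraries, one panel per gene with its own axis, with the mean as a line and error bars of 1 SD (n = 3). The shPRKCN points lie below the shNT points for EGR1, EGR2, NR4A1, NR4A2, IER3 and IER5, above them for SRF, and among them for IER2 and NR4A3, while EGR3 lies at 0 in shNT and near the floor in shPRKCN.

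**Figure D3:**
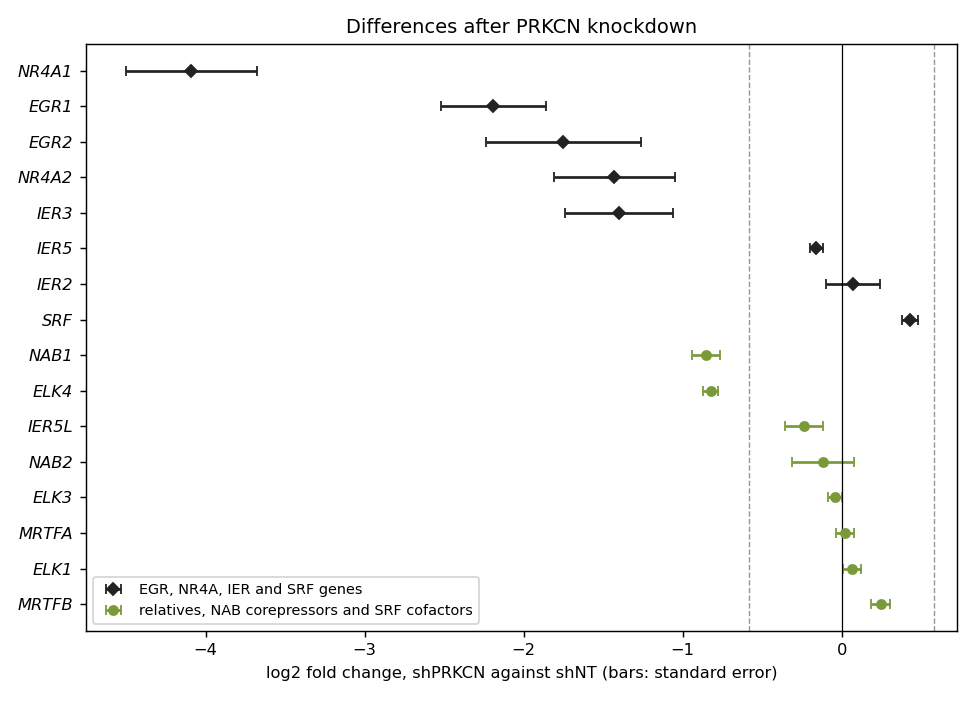
Log2 fold change of shPRKCN over shNT for the 8 tested members (diamonds) and for the tested relatives, NAB corepressors and SRF partners (circles). Bars are 1 SE derived from the F statistic of the edgeR test, and dashed lines lie at the fold limit of 0.58. NR4A1 lies farthest from 0 at -4.09, and IER2 lies at 0.07.

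The promoters of EGR1, SRF and EGR2 are shown because they are the member windows that hold CArG boxes, the element SRF binds. Windows of 300 bases, from 250 before to 50 after a start site, were read from RefSeq (GRCh38.p14) for 7 members, 11 windows in all. EGR3, NR4A2 and IER3 had no entry. Capitals mark the CArG boxes, and each window is written 5′ to 3′ on the gene's own strand. The EGR1 window is chr5:138465229-138465528 on the plus strand, the SRF window chr6:43171019-43171318 on the plus strand and the EGR2 window, the third of its start sites, chr10:62816317-62816616 on the minus strand.
EGR1: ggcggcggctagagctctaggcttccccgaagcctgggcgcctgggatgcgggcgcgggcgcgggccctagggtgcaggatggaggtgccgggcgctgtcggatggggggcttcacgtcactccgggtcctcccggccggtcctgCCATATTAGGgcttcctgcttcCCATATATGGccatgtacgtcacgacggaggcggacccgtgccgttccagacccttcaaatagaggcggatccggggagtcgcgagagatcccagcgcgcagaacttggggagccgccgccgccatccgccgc
SRF: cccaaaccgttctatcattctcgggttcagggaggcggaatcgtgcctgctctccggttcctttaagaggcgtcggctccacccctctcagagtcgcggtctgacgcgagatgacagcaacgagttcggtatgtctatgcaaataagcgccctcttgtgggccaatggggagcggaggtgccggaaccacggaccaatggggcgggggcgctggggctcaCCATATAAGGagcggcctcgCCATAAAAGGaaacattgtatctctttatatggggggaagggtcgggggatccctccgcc
EGR2: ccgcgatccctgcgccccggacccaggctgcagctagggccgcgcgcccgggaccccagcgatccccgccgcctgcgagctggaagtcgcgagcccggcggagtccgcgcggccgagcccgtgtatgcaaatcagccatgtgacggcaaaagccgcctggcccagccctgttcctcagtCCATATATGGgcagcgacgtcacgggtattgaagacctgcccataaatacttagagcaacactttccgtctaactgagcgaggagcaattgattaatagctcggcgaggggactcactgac

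EGR1 held 2 CArG boxes, which began 105 and 83 bases before the start site, and SRF held 2 as well, 30 and 10 bases before its start. The EGR2 window held 1, at 71 bases before the start. Of 35116 RefSeq windows of this length, 1.29% held a CArG box and 0.0313% held 2 or more. TGACG, the core of the site that CREB binds, searched on both strands like the other motifs, was in 24.6% of all windows and occurred in EGR1 (2 times), EGR2 (2 times), SRF, IER2 and NR4A3 (4 times). The ETS core CCGGAA, to which ELK factors bind, was in 17.2% of all windows and in those of IER5, SRF, NR4A1 and IER2. The EGR site in its form GCGGGGGCG (5.07% of windows) occurred in SRF, and the form GCGTGGGCG (0.795% of windows) occurred in none of the 11 windows. These matches describe the letters in the windows and say nothing of binding.

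Genes with a CArG box near the start were called in both directions in this contrast, and whether SRF acts on them was not tested. Of 435 other genes with a box in such a window, 162 were tested, 23 were called lower and 9 higher, and their median log2 fold change was -0.03, where the median of all genes was 0.0012. Their shares called, 14.2% and 5.56%, stand beside 10.6% and 6.15% of all tested genes. Of the other 9 genes with at least 2 boxes, 4 were tested and none was called. AGPAT1 had a log2 fold change of 0.29 (adjusted p = 5.71e-07) and ZNF548 of -0.23 (adjusted p = 0.000218), both short of the fold limit.

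In their transcripts (GENCODE release 29) the EGR and IER genes were short of introns. Over all 10 members the median was 2 exons, against 9 over 11935 tested genes. EGR1, EGR2, EGR3 and IER3 have 2 exons, IER2 and IER5 have 1, SRF has 7 and the NR4A genes have 8 or 9. The pentamer AUUUA, a part of elements that mark an mRNA for rapid decay, was counted in the 3′ UTR. IER3 held 6 copies, or 8.14 per kilobase, more than 97.8% of tested genes, and NR4A1 held 3, or 5.34 per kilobase, more than 92% of them. IER2 held none. Across the set 5 of 10 members were above the median of 1.66 per kilobase over 11828 tested genes, and EGR1, at 0.81 per kilobase, was not.

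The relatives and corepressors of the members had a list median of -0.24 on the log2 scale, from 3 genes with enough counts. NAB1, a corepressor that binds EGR1 and EGR2, had 688, 728 and 681 counts in shNT and 436, 330 and 427 counts in shPRKCN, and it fell (log2 fold change -0.85, SE 0.0889, adjusted p = 4.58e-13). NAB2, itself an EGR1 target, had a log2 fold change of -0.12 and did not pass (adjusted p = 0.642), nor did IER5L (-0.24, adjusted p = 0.0911). EGR4 had a single count in 1 library.

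Among the partners that SRF binds, ELK4 (SAP1), a TCF factor phosphorylated by ERK, had 4186, 4290 and 4352 counts in shNT and 2661, 2221 and 2564 counts in shPRKCN. It fell by 0.82 on the log2 scale (SE 0.0456, adjusted p = 2.26e-25). ELK1 (0.07, adjusted p = 0.314), ELK3 (-0.04, adjusted p = 0.418) and the actin-regulated coactivator MRTFA (0.02, adjusted p = 0.769) did not pass. MRTFB passed the adjusted p (2.78e-04) at a log2 fold change of 0.25, short of the fold limit.

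The cytoskeletal genes that SRF and MRTF are known to drive went both ways. Of 24 tested, 3 were called lower and 3 higher, beside 10.6% and 6.15% of all genes, and the median log2 fold change was 0.02. Filamin A, FLNA (log2 fold change -0.85, adjusted p = 1.74e-32), and vinculin, VCL (-0.67, adjusted p = 1.61e-06), fell. CCN2, a matricellular protein, rose from 230, 234 and 250 counts to 454, 456 and 485 counts (0.93, adjusted p = 8.35e-12). ACTA2, smooth muscle actin, rose from 4, 2 and 4 counts to 13, 14 and 12 counts (1.89, adjusted p = 0.0104), at low counts.

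Of 21 genes of the cascade from RAS to ERK and its kinases, 2 were called lower and none higher by edgeR. Over all genes 10.6% and 6.15% were. The adjusted p alone was passed by 11 on the lower side and 6 on the higher side, beside 27.8% and 26.5% of all genes. DESeq2 also called 2 lower and none higher. RPS6KA5 (MSK1), a kinase that phosphorylates CREB and histone H3 at immediate-early genes, had 309, 282 and 288 counts in shNT and 162, 118 and 123 counts in shPRKCN. It fell by 1.16 on the log2 scale (SE 0.138, adjusted p = 3.57e-11). NRAS fell by 0.64 (SE 0.0405, adjusted p = 1.43e-22). The adaptor SHC1, the most abundant gene of the list, had a log2 fold change of 0.12.

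The CREB and CRTC genes carry cyclic AMP and calcium signals to the NR4A promoters. Of 11 tested, none was called in edgeR or DESeq2. With the fold limit dropped, 3 were lower and 6 higher, by the adjusted as by the unadjusted p. Over all genes 27.8% and 26.5% were, by the adjusted p. The list median was 0.15 on the log2 scale, and the most abundant gene of the list, PRKAR1A, was at 0.16. The 3 lower genes included CREB1 (-0.26, adjusted p = 7.08e-06) and ATF1 (-0.27, adjusted p = 7.29e-05), while CREM did not pass (-0.11, adjusted p = 0.394). Of the 13 tested MEF2 and class IIa HDAC genes, HDAC9, a repressor that binds MEF2, fell from 1879, 1937 and 1955 counts to 1020, 932 and 1081 counts (-0.97, SE 0.0555, adjusted p = 1.45e-24). MEF2C, the most abundant, had a log2 fold change of -0.28, and the list median was 0.08.

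Of 9 tested partners and coregulators of the NR4A receptors, BCL2 was the called gene, and the list median was 0.05. Over all tested genes 10.6% were called lower. BCL2 is the survival protein that NR4A1 binds at mitochondria, and it had 5454, 5766 and 5622 counts in shNT and 2345, 2218 and 2395 counts in shPRKCN. It fell by 1.31 on the log2 scale (SE 0.0416, adjusted p = 1.23e-38), while TRIM28, the most abundant of the list, had a log2 fold change of 0.05 (adjusted p = 0.296). Around IER5, 13 genes of PP2A subunits and HSF1 were tested. The regulatory subunit PPP2R5B fell (-0.91, adjusted p = 1.77e-14) and PPP2R2B rose (0.79, adjusted p = 5.82e-08), with a list median of -0.03.

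Of 11 tested heat shock genes, which HSF1 drives, 3 were called lower and 0 higher, beside 10.6% and 6.15% of all tested genes. The list median was -0.11. The adjusted p alone was passed by 5 on the lower side and by 1, DNAJB1 (0.31, adjusted p = 3.92e-08), on the higher side. Over all genes 27.8% and 26.5% passed it. HSF1 itself had a log2 fold change of 0.19 (adjusted p = 3.61e-05), short of the fold limit. HSPA1B fell from 2321, 2479 and 2610 counts to 1092, 1122 and 1102 counts (-1.20, adjusted p = 3.81e-31). HSPA1A fell by 0.96 (adjusted p = 3.77e-04) and HSPB1 by 0.83 (adjusted p = 4.55e-08). HSPA1A and HSPA1B are near-identical copies, so their split of the reads is uncertain. HSPA8, the constitutive chaperone, had a log2 fold change of -0.12.

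Genes reported as EGR1 targets went both ways, with a median of -0.12. Of 16 tested, 4 were called lower and 2 higher, beside 10.6% and 6.15% of all genes. Fibronectin, FN1, fell from 797, 763 and 777 counts to 338, 313 and 359 counts (-1.25, SE 0.0855, adjusted p = 7.93e-21). CCND1, cyclin D1, fell by 1.10 (adjusted p = 5.54e-06) and HPSE, heparanase, by 0.95 (adjusted p = 8.52e-15). THBS1, thrombospondin, rose from 27, 14 and 18 counts to 45, 48 and 43 counts (1.16, adjusted p = 0.00474).

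The immediate-early genes outside the set had a wide range, from -3.12 to 1.83. Of 54 tested, 21 were called lower and 5 higher, beside 10.6% and 6.15% of all genes, and the median log2 fold change was -0.39. The lower side was led by the AP-1 subunits FOSB at -3.12 (SE 0.097, adjusted p = 4.96e-39), FOS at -2.67 (adjusted p = 1.24e-52) and JUN at -2.41 (adjusted p = 9.95e-56). Of the other FOS and JUN genes in the list, JUND was at -0.59, just past the fold limit, and JUNB at -0.41, short of it. FOSL1 was not tested. The chemokine CCL3 fell by 2.23 (adjusted p = 1.01e-53). PLK2, a kinase that was chosen for mention after its values were seen as the highest of the list, rose from 941, 1170 and 1100 counts to 4008, 3767 and 3945 counts (1.83, adjusted p = 1.04e-41). The fall thus did not extend to every gene of this class, and 11 of the 54 did not pass an adjusted p of 0.05 in either direction.

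Genes of the machinery that degrades AU-rich mRNAs, which include many immediate-early transcripts, held no called gene among 15 tested in edgeR or DESeq2. The adjusted p alone was passed by 6 on the lower side and 2 on the higher side, beside 27.8% and 26.5% of all genes. The unadjusted p was passed by 6 and 3. The most abundant, HNRNPD, had a log2 fold change of -0.15, and the list median was -0.08.

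The genes whose log2 CPM followed EGR1 most closely over the 6 libraries were BCR (Pearson r = 0.99), PI4K2A (0.986), DOCK3 (0.985), XYLT2 (0.984) and MMP16 (0.984), taken from 11658 tested genes whose mean reached 50 counts. These values describe likeness only, since all points share the same 6 libraries and their group difference. They also lean on the third shPRKCN library, where EGR1 was at the floor with 3 counts. Each of the 5 genes had its lowest count in that library too. The 5 genes differed far less between the groups than EGR1 did, with log2 fold changes from -0.38 for DOCK3 to -0.12 for PI4K2A. No other member was among the 5.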

How the data were processed

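RNA-seq was measured in 6 MM.1S libraries, 3 shNT and 3 shPRKCN, grouped by the treatment label. The authors deposited raw counts per gene for 21850 genes and FPKM values of the same genes, which follow from the counts, the library totals and a gene length. The submitters' processing notes name FastQC, HISAT2, StringTie and GRCh38.p14, and the counting program, annotation and strandedness are not given in the sources used here. The paper's methods name DESeq2.

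TMM scaling was used, and the quasi-likelihood test of edgeR 4.0.16 in R 4.3.3 was run on the 13971 genes kept by its filter on low counts, with Benjamini-Hochberg adjustment over all of them. The limits for a call were 0.05 for the adjusted p and 0.58 for the absolute log2 fold change, as in the paper's methods. Library totals ran from 35625564 to 37730003 counts, and 3 counts was taken as the floor. The SE of a log2 fold change was derived from the test, as its absolute value over the square root of the F statistic. Intervals cover counting error only. Alternatives were DESeq2 1.42.0, other scalings and filters, no fold limit, a replicate block, leaving out single libraries, and limma 3.58.1 on log2(FPKM + pseudocount). The edgeR step alone was run on simulated counts, drawn with its own fitted dispersions. That run says nothing of the other steps. Promoters and positions came from RefSeq (GRCh38.p14), and transcripts from GENCODE release 29, read with Python 3.11.15.

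The members and the gene lists were chosen with earlier results of these data known. SDC1, JCHAIN, CD38, DNAJB1, HSF1, CREB1, ATF1 and CREM were named outside the rule that follows. They were added after their values were seen, to show the spread within their lists. The rule for named genes takes all members, all genes of a list of up to 6, otherwise up to 4 called genes with the largest absolute log2 fold change and, where fewer are called, the most abundant tested gene, the 5 genes most like EGR1, and listed genes that overlap a member.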

Additional observations from a re-analysis of the deposited data

How the results depend on the processing

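Of 120 values of single members under the alternatives, 110 moved by less than 1 SD between replicates and 10, all on FPKM scales, by more. Among called members no sign changed. Members called lower numbered 5 in the count fits with the fold limit, except with at least 10 counts in every library, where EGR1, EGR2 and NR4A1 were not tested and 2 were called. With limma on log2(FPKM + 1), a scale that compresses low values, 1 member was called, and 0 with an FPKM of at least 1 in 3 libraries, where none of the 5 was tested. Without the fold limit 6 members were called lower and 1 higher, and of the other immediate-early genes 31 lower and 12 higher. Over all genes the calls were 648 lower and 315 higher with limma on log2(FPKM + 1), 635 and 310 with the FPKM filter, and 3877 and 3700 without the fold limit. With single libraries left out no count of calls moved by over 1.5 times, and the log2 fold change of IER2 ran from -0.01 to 0.22.

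Of 192 list medians under the alternatives, 165 moved by less than 1 SD between replicates and 27 by more. The replicate numbers did not pair the libraries: the correlations of same-numbered deviations were -0.041, -0.017 and 0.002. The fit with the replicate block called 5 members lower, 1463 genes lower and 854 higher, and 21 and 5 of the other immediate-early genes. Counts of at most 127 per library limit the precision for EGR1, EGR2, NR4A1, NR4A2 and IER3. NR4A1 was at or near the floor in shPRKCN, as were EGR1 and EGR2 in the third shPRKCN library. EGR3 and NR4A3 were at or near the floor in both groups, where no difference was detectable at this depth.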
